A study of Homo sapiens with 6 samples.

Results

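The genes described here encode mitochondrial ribosomal proteins. They were taken by symbol, MRPL or MRPS followed by a digit, from the protein-coding genes of the deposited table, with a mean of at least 10 normalized counts over 6 libraries. All 77 such genes in the table passed that minimum, 48 with MRPL symbols (large subunit) and 29 with MRPS symbols (small subunit), out of 17202 genes in the table and 13465 genes above the minimum. The libraries came from DND41 cells, a human line of T-cell acute lymphoblastic leukaemia. In 3 libraries the cells had been treated for 24 h with MB1-47, which the series title calls an uncoupler of mitochondria. The other 3 came from cells given its solvent, DMSO, for the same time. Both groups were kept in RPMI medium with 10% serum, and the labels give the MB1-47 dose as 4 mM, a unit repeated here as written. Cells of this 1 line were plated in triplicates, and the labels do not say whether the libraries came from separate cultures, so the error behind each p-value may be technical.

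The mitochondrial ribosome is a separate ribosome inside the organelle that makes only the few membrane proteins encoded by mitochondrial DNA, all of them subunits of the respiratory chain and ATP synthase. Its ribosomal RNAs come from mitochondrial DNA, while all of its proteins are encoded in the nucleus, made in the cytosol and imported. Part of the proteins descend from bacterial ribosomal proteins and the rest were added in the mitochondrial lineage. The large subunit joins amino acids and holds the exit tunnel, and the small subunit binds and decodes the mRNA.

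The values are normalized counts deposited by the authors, which do not come out as whole reads. Sequencing depth is therefore unknown, and counting intervals could not be formed. Their totals ran from 28323706 to 32667526 per library. Libraries correlated at 0.955 to 0.968 within groups and 0.927 to 0.948 between groups on the log2 scale. No gene had the same value above 0 in any pair of libraries. T-lineage markers stood high, with 9 of 10 in the table and summed levels of 52110 to 55460 in DMSO and 30170 to 34330 in MB1-47 libraries, although CD5 and CD2 were at most 75.1. Of the B-lineage markers, CD79A ran from 15940 to 17080 in DMSO and from 6378 to 7102 in MB1-47, EBF1 from 695 to 903 and from 944 to 1246, and PAX5 was at most 23.1. Of myeloid markers 2 of 5 were in the table (sums of 0 to 22.9 in DMSO and 3.22 to 11.2 in MB1-47, CD14 at 0 in all MB1-47 libraries), and of erythroid markers 2 of 4 (11.7 to 26.8 and 17.3 to 36.5). Of 5 genes listed as stromal and epithelial markers, COL1A1, COL3A1, EPCAM and KRT19 were not in the table. PECAM1, the other gene on that list, ran from 978 to 1501 in DMSO and from 513 to 612 in MB1-47. The part of all these markers in the results was not tested. In bulk RNA, fewer cells of a type and less RNA per cell cannot be told apart.

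Most mitochondrial ribosomal protein genes were lower with MB1-47. Of 77 members, 46 fell and 2 rose at an adjusted p under 0.05 (limma, Benjamini-Hochberg over all genes tested), where 19.8% of all 13465 genes tested fell and 18.3% rose. The median log2 fold change of the members was -0.66, with the middle of the distribution between -0.90 and -0.24, beside a median of 0.02 over all genes tested. The groups did not overlap in 57 members, with MB1-47 lower in 55 of them (25.2% of all genes) and higher in 2 (24.1% of all genes). A fall of at least 2-fold was called in 13 members, against 5.99% of all genes. Together the members made up 0.381% ± 0.0115 of all normalized counts in DMSO libraries and 0.289% ± 0.00971 in MB1-47 libraries (SD, n = 3). Each library showed the shift: the median member stood between -0.09 and 0.08 in the DMSO libraries and between -0.63 and -0.50 in the MB1-47 libraries, on the log2 scale relative to the gene's DMSO mean. Leaving out any 1 library left between 40 and 46 members called lower.

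**Figure D1:**
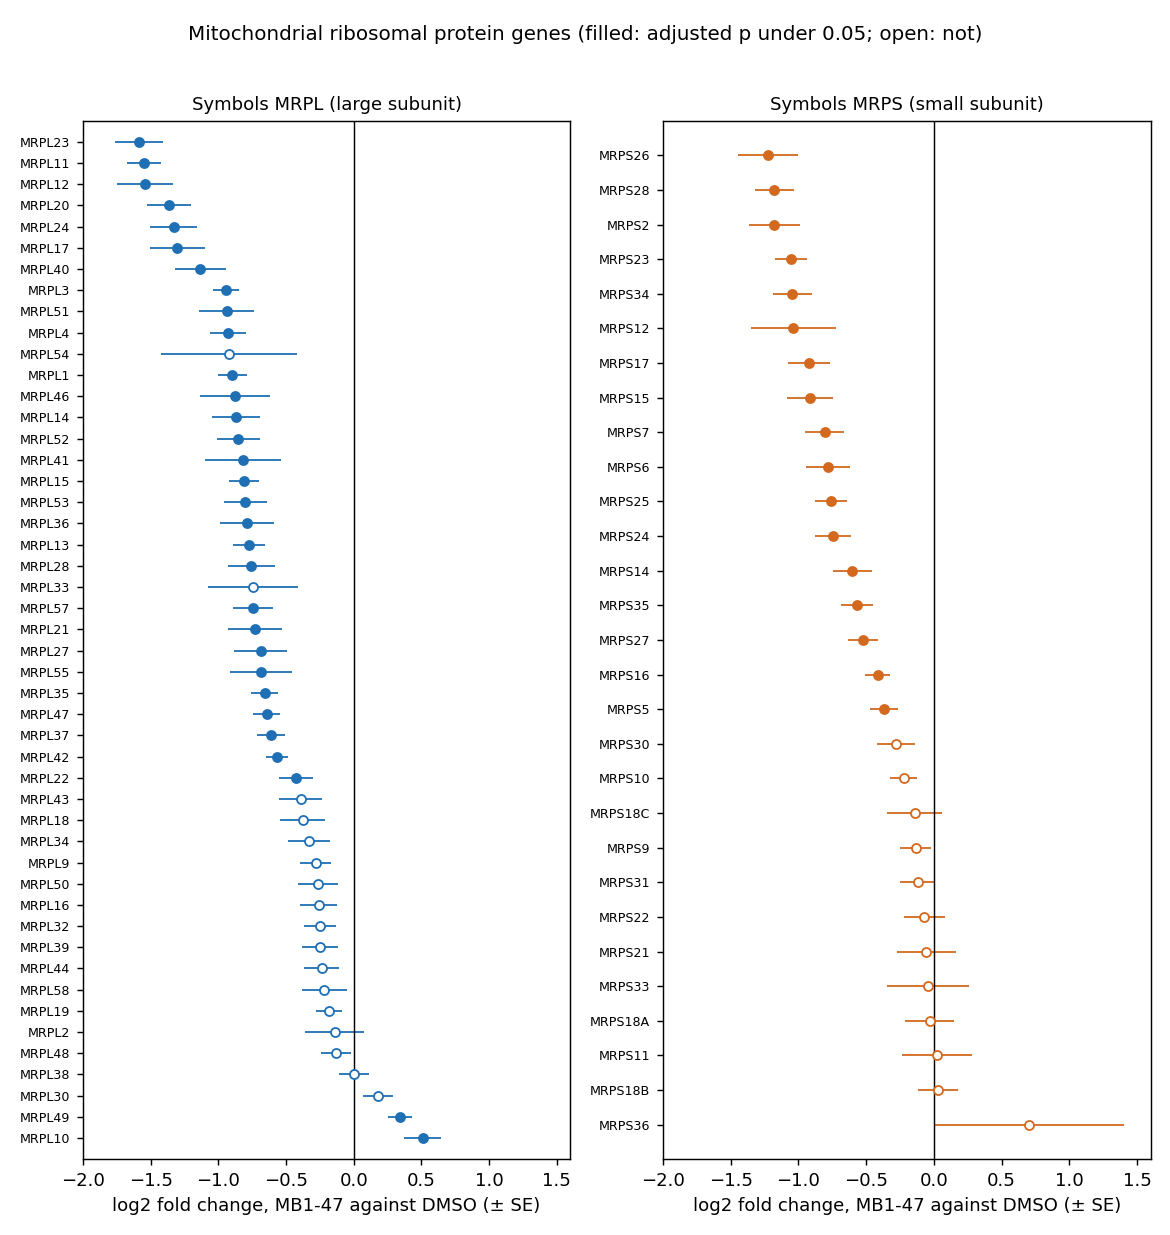
Log2 fold change of each member, MB1-47 against DMSO, with its standard error (horizontal axis), for the 48 MRPL genes (left, blue) and the 29 MRPS genes (right, orange); filled points have an adjusted p under 0.05. Most points lie left of 0 on both sides, and the 2 filled points right of 0 are MRPL49 and MRPL10.

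Both subunits shifted down. By symbol, 29 of 48 large-subunit genes (60.4%) and 17 of 29 small-subunit genes (58.6%) fell, and both genes that rose carry MRPL symbols. Medians were -0.71 for the large and -0.52 for the small subunit, a description with no test of the difference. The share of all normalized counts went from 0.252% ± 0.00698 to 0.190% ± 0.00741 for MRPL genes and from 0.130% ± 0.00452 to 0.0988% ± 0.00231 for MRPS genes (SD, n = 3). Symbols do not match the structure in every case: MRPS30 and MRPS18A sit in the large subunit of the mammalian mitochondrial ribosome, and MRPS36 is now known as a subunit of the 2-oxoglutarate dehydrogenase complex. None of these 3 genes was called. With the first pair counted as large subunit and MRPS36 left out, 29 of 50 large-subunit genes and 17 of 26 small-subunit genes fell, with medians of -0.68 and -0.59.

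**Figure D2:**
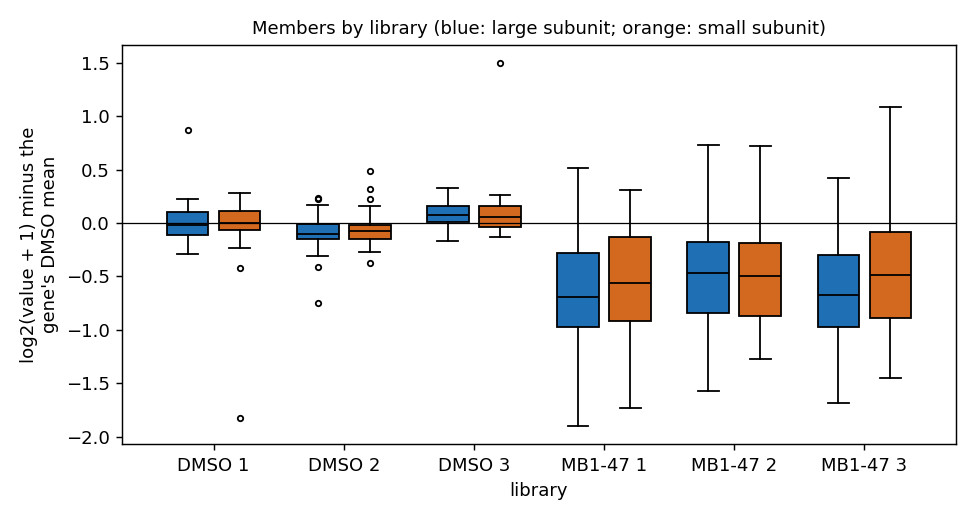
Distribution of log2(value + 1) minus the gene's DMSO mean (vertical axis) over the 48 MRPL genes (blue) and the 29 MRPS genes (orange) in each of the 6 libraries; boxes span the quartiles, lines mark medians, whiskers reach 1.5 box lengths and circles lie beyond. All MB1-47 medians lie at or below -0.47, and all DMSO medians lie between -0.10 and 0.08.

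The stalk of the large subunit, which recruits translation factors to the ribosome, was split. MRPL10 anchors the stalk, MRPL12 forms its flexible arm and MRPL11 lies at its base. MRPL11, on chromosome 11 from 66435075 to 66466738, read 2522, 2752 and 2438 normalized counts in the DMSO libraries and 815, 1028 and 808 in the MB1-47 libraries. That is a 2.92-fold fall (log2 fold change -1.55 ± 0.12 SE, adjusted p = 4.8e-06), with every MB1-47 library far below every DMSO library. MRPL12, on chromosome 17 from 81703357 to 81707526, read 501, 629 and 592 in DMSO and 152, 216 and 228 in MB1-47, a 2.91-fold fall (-1.54 ± 0.21, adjusted p = 0.00018). MRPL10, on chromosome 17 from 47823272 to 47831534, went the other way: 1384, 1128 and 1227 in DMSO and 1777, 2061 and 1517 in MB1-47. It rose 1.43-fold (0.51 ± 0.14, adjusted p = 0.0123) with no overlap between the groups.

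Set against each other within each library, the stalk genes gave the following ratios. MRPL10 stood at 2.76, 1.79 and 2.07 times MRPL12 in the DMSO libraries and at 11.7, 9.55 and 6.64 times in the MB1-47 libraries, a log2 difference of 2.06. The ratio of MRPL11 to MRPL12 was 5.03, 4.37 and 4.12 in DMSO and 5.35, 4.76 and 3.54 in MB1-47, groups that overlap. Since MRPL10 was higher and MRPL12 lower with no overlap in either gene, their ratio separates the groups by construction, and these ratios are given as a description with no test. These ratios are of library values that are not corrected for transcript length, so they compare conditions and not the abundance of the genes. MRPL10 was on the higher side in each of 18 alternative settings of the processing and missed the threshold only without an intensity trend (adjusted p = 0.0534).

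**Figure D3:**
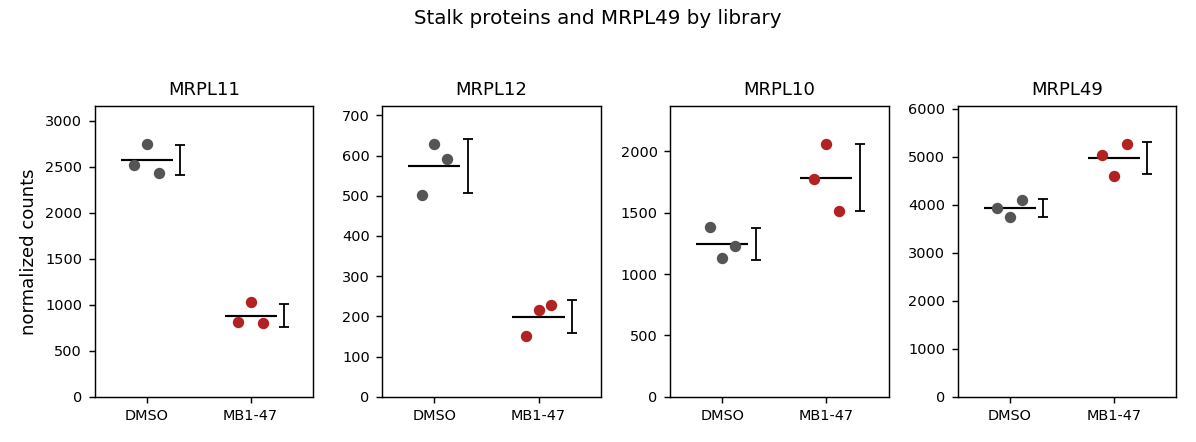
Normalized counts (vertical axis, starting at 0) of MRPL11, MRPL12, MRPL10 and MRPL49 in the 3 DMSO (grey) and 3 MB1-47 (red) libraries; horizontal lines are means and bars are SD. MRPL11 and MRPL12 lie lower with MB1-47 and MRPL10 and MRPL49 higher, with no overlap between groups in any of them.

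Proteins around the exit tunnel, where the new chain leaves the large subunit, include the gene with the largest fall of all members. Of 7 measured genes of this group, 5 fell, none rose and 2 were not called. MRPL45, the member of the group that contacts the inner membrane, was not analysed here. MRPL23, on chromosome 11 from 1947278 to 1984522, read 1357, 1183 and 1512 in DMSO and 372, 573 and 418 in MB1-47. It fell 3.01-fold (-1.59 ± 0.18, adjusted p = 4.7e-05). MRPL24 fell 2.51-fold and MRPL17 2.47-fold, and each had its MB1-47 libraries below its DMSO libraries (at most 307 against at least 623 for MRPL24, and at most 281 against at least 500 for MRPL17). MRPL47 (-0.64 ± 0.10) and MRPL22 (-0.43 ± 0.13) also fell. MRPL22 was no longer called without DMSO replicate 3, without MB1-47 replicate 1 or with equal library totals, and its adjusted p of 0.0203 ranged up to 0.0827. MRPL39 (-0.25 ± 0.13) and MRPL44 (-0.24 ± 0.13), both without a bacterial counterpart, were not called.

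The central protuberance is a tower on top of the large subunit that contacts tRNA. Of its 6 mitochondrial proteins on the list, MRPL40, MRPL46 and MRPL52 fell, none rose, and MRPL38, MRPL48 and MRPL58 were not called. MRPL40 read 736, 574 and 597 in DMSO and 309, 325 and 236 in MB1-47 (-1.13 ± 0.19). MRPL52 fell from 1036 ± 178 to 571 ± 67.9 (SD, n = 3). MRPL46 changed by -0.88 ± 0.26, a call lost without DMSO replicate 1, MB1-47 replicate 1 or MB1-47 replicate 3, or without an intensity trend. MRPL38 read 1105, 1144 and 1285 in DMSO and 1180, 1152 and 1201 in MB1-47, a difference of 0.00 ± 0.11. MRPL58, a peptidyl-tRNA hydrolase built into the ribosome, read 396 ± 35.8 and 340 ± 15.1.

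Over the whole large subunit, falls were called both among genes with a bacterial counterpart and among mitochondrial additions. The counts that follow include the stalk, exit tunnel and central protuberance genes given above. Among 30 large-subunit genes with a bacterial counterpart, 20 fell, 1 rose and 9 were not called (median -0.74). Among 20 classed by structure as mitochondrial additions, MRPS30 and MRPS18A included, 9 fell, 1 rose and 10 were not called (median -0.48). MRPS18A was placed there by its position in the structure, which does not settle its descent. The difference between these shares was not tested. MRPL20 read 778, 806 and 908 in DMSO and 279, 358 and 332 in MB1-47, a 2.58-fold fall (-1.37 ± 0.16). MRPL3, which reaches toward the peptidyl transferase centre, fell from 11500 ± 1216 to 5983 ± 422 (-0.94 ± 0.10). MRPL4 fell by 0.93, MRPL1, which forms the other stalk, by 0.90, and MRPL14 by 0.87 on the log2 scale. MRPL15, MRPL36, MRPL13, MRPL28, MRPL21, MRPL27, MRPL55 and MRPL35 fell by between 0.66 and 0.81 on that scale. Of the mitochondrial additions outside the groups given above, MRPL51, MRPL41, MRPL53, MRPL57, MRPL37 and MRPL42 fell, by between 0.57 and 0.94.

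Several of those calls were lost when a library was left out or a setting was changed. MRPL41, among the lowest members at 166 ± 29.5 and 93.4 ± 13.8, lost its call in 9 of 18 alternatives, among them those without any library but DMSO replicate 1. MRPL55 lost it in 8, among them those without DMSO replicate 3, MB1-47 replicate 1 or MB1-47 replicate 3 and that with the replicate number as a block. MRPL21 lost it without any of the same 3 libraries and without an intensity trend. MRPL27 lost it without DMSO replicate 2 or MB1-47 replicate 3 and with equal library totals. In all 4 genes the direction was lower in each of 18 alternatives.

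In the small subunit, the head, which swivels over the mRNA, had 4 of 8 members called lower (median -0.40), and none rose. The other 18 small-subunit genes placed there by structure had 13 that fell (median -0.77), and again none rose. This difference between head and the rest was not tested. Subunits with other names, given below, are not in these counts. The head genes that fell were MRPS7 (-0.80 ± 0.14), which binds early in assembly, MRPS24 (-0.74 ± 0.13), MRPS14 (-0.60 ± 0.14) and MRPS35 (-0.57 ± 0.12). MRPS9, MRPS10, MRPS31 and MRPS33 were not called, with values between -0.22 and -0.04. None of the head genes fell 2-fold.

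Outside the head, 6 genes fell at least 2-fold. MRPS26 read 399, 384 and 387 in DMSO and 137, 214 and 157 in MB1-47, a 2.33-fold fall (-1.22 ± 0.22, adjusted p = 0.00114). MRPS28 fell 2.26-fold, from 1095 ± 36.8 to 486 ± 65.3, and MRPS2 2.26-fold, from 927 ± 177 to 409 ± 75.6 (SD, n = 3). MRPS23 read 3443, 3480 and 3585 in DMSO and 1872, 1800 and 1420 in MB1-47, so that its groups lie wide apart (-1.05 ± 0.12). MRPS34 changed by -1.05 ± 0.14. MRPS12, which sits at the decoding centre, read 271, 234 and 235 in DMSO and 73.6, 134 and 172 in MB1-47. Its 2.05-fold fall (adjusted p = 0.0226) was not called without any 1 of the DMSO libraries, without MB1-47 replicate 1, without an intensity trend, or with the replicate block and the GC and length correction together. The remaining small-subunit genes that fell were MRPS17, MRPS15, MRPS6, MRPS25, MRPS27, MRPS16 and MRPS5, by between 0.37 and 0.92 on the log2 scale. MRPS5 lost its call without DMSO replicate 3 or MB1-47 replicate 1, without an intensity trend (adjusted p = 0.0534) and with equal library totals, where its change was -0.24 in place of -0.37 (adjusted p = 0.0695).

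The members that did not fall are 31 genes, 19 of the large and 12 of the small subunit by symbol. MRPL49, a mitochondrial addition to the large subunit on chromosome 11 from 65122183 to 65127371, read 3929, 3744 and 4112 in DMSO and 5046, 4608 and 5274 in MB1-47. It rose 1.27-fold (0.34 ± 0.09, adjusted p = 0.0109) with no overlap between the groups. The call was lost without MB1-47 replicate 3 (adjusted p = 0.0524), and with the trend on GC content and length removed the change was 0.54. Exons of MRPL49 overlap those of SYVN1 and FAU on the opposite strand. SYVN1, a ubiquitin ligase of the endoplasmic reticulum, rose from 1400 ± 55.9 to 2913 ± 43.3, and FAU, which encodes a cytosolic ribosomal protein, fell from 6998 ± 898 to 2807 ± 249. The library protocol keeps strand, but how strand was used in counting is not given in the sources used here, and the part of these overlaps in the MRPL49 value was not tested. MRPL10 has no exon overlap with another gene in the table.

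Of the 29 members not called, 24 had a fold change below 0 and 9 had groups that did not overlap, all of them with MB1-47 lower. These 9 were MRPL33, MRPL18, MRPL34, MRPL9, MRPL50, MRPL32, MRPL44, MRPS10 and MRPS31. Over all genes tested, called or not, 25.2% had groups that did not overlap with MB1-47 lower, and 48.8% had a fold change below 0. A further set lay within 0.15 of 0 on the log2 scale: MRPS18C, MRPL2, MRPS9, MRPL48, MRPS31, MRPS22, MRPS21, MRPS33, MRPS18A, MRPL38, MRPS11 and MRPS18B. Missing the threshold does not show that these genes kept their level. Of the 29, 6 passed as lower in at least 1 alternative: MRPL50 and MRPS10 with GC and length trends removed, MRPL18 without DMSO replicate 1, MRPL43 without DMSO replicate 2, MRPL9 without MB1-47 replicate 2 and MRPS30 without MB1-47 replicate 1. Standard errors of the set near 0 ran from 0.11 (MRPL48, MRPL38) to 0.30 (MRPS33), so moderate changes would not have been detected in the noisier ones. MRPL30 was on the higher side without a call (0.18 ± 0.11). MRPL54, at 227, 73.6 and 113 in DMSO and 55.9, 123 and 39.6 in MB1-47, was not called at -0.92 ± 0.50, and its groups overlap. MRPL43 (-0.39 ± 0.16), MRPL16 (-0.26 ± 0.14), MRPL19 (-0.18 ± 0.09) and MRPS30 (-0.28 ± 0.14) complete the list together with the genes named above.

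MRPS36 varied most between replicates. It read 12.1, 56.9 and 130 in DMSO and 56.6, 75.4 and 97.4 in MB1-47, the lowest mean of any member. Its change of 0.71 ± 0.70 was not called, and without DMSO replicate 1 it was -0.20.

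Many of these genes have pseudogenes, whose reads can be hard to separate from those of the gene. GENCODE 29 lists at least 1 named pseudogene for 33 of the 77 members. Of those 33 members, 17 fell and 1 rose (median -0.37), and of the 44 without one, 29 fell and 1 rose (median -0.76). The difference between these medians was not tested. Pseudogenes of only 4 members (MRPL50, MRPS17, MRPS18A and MRPS31) were in the table, so for the others pseudogene values could not be added. Among these 4, adding the pseudogene values turned the direction of MRPS31 only. MRPS31 read 804 ± 55.4 in DMSO and 739 ± 10.1 in MB1-47, while its transcribed pseudogene MRPS31P5 rose from 355 ± 140 to 624 ± 28.2 (0.91 ± 0.28, adjusted p = 0.0253). With the values of its pseudogenes added, MRPS31 changed by 0.24 in place of -0.12, and neither value was called. Exon overlap with another gene averaging at least 10 was found for 31 members, of which 19 fell and 1 rose. Without such overlap, 27 of 46 members fell and 1 rose. MRPS6 shares exons on the same strand with SLC5A3, a myo-inositol transporter. MRPS6 fell from 1331 ± 80.8 to 787 ± 184 while SLC5A3 was not called at 0.25 ± 0.09. MRPL2, not called, overlaps on the opposite strand with KLC4, which rose from 689 ± 48.4 to 1644 ± 83.8.

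Subunits of the mitochondrial ribosome that carry other names moved the same way, beside a share of 19.8% lower over all genes tested. All 5 on the list fell, with log2 fold changes of -1.34 (GADD45GIP1), -0.88 (CHCHD1), -0.82 (AURKAIP1), -0.40 (PTCD3) and -0.35 (DAP3). GADD45GIP1, of the large subunit, read 228, 200 and 201 in DMSO and 77.3, 109 and 65.4 in MB1-47. The other 4 belong to the small subunit, where DAP3 binds GTP and PTCD3 lies near the mRNA. DAP3 (adjusted p = 0.0227) and AURKAIP1 (adjusted p = 0.0244) each lost the call in 7 of 18 alternatives, and 3 of the 5 were called without DMSO replicate 3 or without MB1-47 replicate 3.

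Genes that build the mitochondrial ribosome or modify its RNA fell in 16 of 30 cases tested and rose in 1. The remaining 13 were not called, and the median was -0.39. Over all genes tested, 19.8% fell and 18.3% rose. MRM1, a methyltransferase of the large ribosomal RNA, read 760, 618 and 792 in DMSO and 233, 164 and 153 in MB1-47, a 3.98-fold fall. C1QBP, a matrix protein linked to ribosome assembly, fell from 15056 ± 1990 to 4408 ± 382 (-1.77 ± 0.11). MRM3 (-1.38 ± 0.21), another methyltransferase, and TRUB2 (-1.11 ± 0.19), a pseudouridine synthase, also fell. NOA1, a GTPase of the small subunit's assembly, rose (0.47 ± 0.15, adjusted p = 0.0293), a call lost without DMSO replicate 1, MB1-47 replicate 2 or MB1-47 replicate 3, or without an intensity trend.

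Among translation factors and partners of mitochondrial mRNA, 9 of 23 fell, 2 rose and 12 were not called (median -0.31). Shares over all genes tested were 19.8% lower and 18.3% higher. SLIRP, which stabilises mitochondrial mRNAs with LRPPRC, read 666, 663 and 652 in DMSO and 225, 220 and 299 in MB1-47. The elongation factors TSFM and TUFM changed by -0.92 ± 0.16 and -0.86 ± 0.08, and PDF, which removes the formyl group from new chains, by -0.76 ± 0.16. The genes that rose were OXA1L, the insertase that receives chains from the exit tunnel, and MTIF3, an initiation factor. OXA1L read 1057, 911 and 1230 in DMSO and 1810, 1624 and 1444 in MB1-47 (0.61 ± 0.14, adjusted p = 0.00521). MTIF3 was at 0.53 ± 0.19 with groups that overlap, and its call was lost without DMSO replicate 2 or 3 or MB1-47 replicate 1 or 3, or without an intensity trend.

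**Figure D4:**
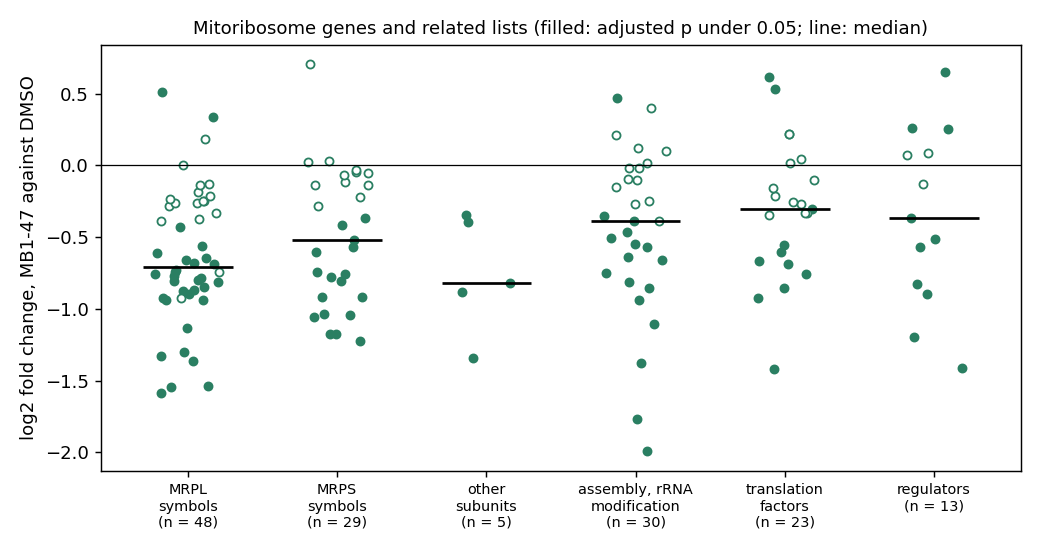
Log2 fold change of MB1-47 against DMSO (vertical axis) for genes of the mitochondrial ribosome and 4 related lists; each point is a gene, filled where the adjusted p is under 0.05, and lines are medians. The medians of the 2 ribosome groups are -0.71 and -0.52, and those of the assembly and translation factor lists are -0.39 and -0.31.

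The regulator list holds factors known to act on nuclear promoters, their coactivators, and TFAM, TFB2M and POLRMT, which act on mitochondrial DNA. Of 13 tested, 7 fell, these last 3 genes among them, and 3 rose, where 19.8% of all genes tested fell and 18.3% rose. PPRC1 and PPARGC1B, coactivators of mitochondrial biogenesis, changed by -1.42 ± 0.17 and -1.19 ± 0.12. MYC changed by -0.89 ± 0.11 and TFAM, the packaging factor of mitochondrial DNA, by -0.83 ± 0.10. TFB2M, which opens mitochondrial promoters, changed by -0.37 ± 0.11, and POLRMT, the mitochondrial RNA polymerase, by -0.57 ± 0.14. TFB2M lost its call in 5 of 18 alternatives. These were equal library totals and leaving out DMSO replicate 1 or 3 or MB1-47 replicate 2 or 3. POLRMT lost its call without an intensity trend (adjusted p = 0.0541). GABPB1, the partner subunit of GABPA, fell (-0.52 ± 0.12). SP1 rose (0.65 ± 0.09). The ETS factor GABPA was at 0.26 ± 0.09 (adjusted p = 0.046). Its call was lost in 9 of 18 alternatives, among them every one without a single library except MB1-47 replicate 2, and it was -0.03 with the GC and length trend removed. MAX, the partner of MYC, was at 0.25 ± 0.09 with an adjusted p just under the threshold, a call lost in 7 of 18 alternatives: without DMSO replicate 2 or 3 or MB1-47 replicate 1 or 3, with a pseudocount of 0.5, with no filter and without an intensity trend. NRF1 (0.07 ± 0.12) and YY1 (0.09 ± 0.09) were not called, although YY1 passed at 0.25 with quantile normalization (adjusted p = 0.0177) and at 0.22 with equal library totals (adjusted p = 0.0377), and PPARGC1A lay below the minimum at 2.17 ± 1.07 and 0.967 ± 1.01.

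Promoters were read from RefSeq (GRCh38.p14), 250 bases before to 50 bases after each gene's start, and 68 members had one in that table. Each was searched on both strands for CCGGAAG (the core bound by ETS factors such as GABPA), AGATGGC (YY1), GCATGCG (NRF1), CACGTG (the E-box bound by MYC and its relatives) and GGGCGG (the GC-box of SP1). Motifs were counted separately, so bases at which neighbouring motifs run into each other could count for both. CCGGAAG was in 29 of 68 member promoters (42.6%), against 19.9% of 9774 tested genes and 10.7% of all 27305 promoters. AGATGGC was in 20 (29.4%), against 7.64% of tested genes and 5.61% of all promoters. GCATGCG was in 10.3% of member promoters (6.72% of tested genes, 4.13% of all), CACGTG in 7.35% (10.1% and 7.43%) and GGGCGG in 60.3% (68.6% and 44.6%).

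Motifs were present both in members that fell and in members not called. CCGGAAG was in 14 of 40 promoters of members that fell and in 15 of 27 of those not called, and AGATGGC in 12 of 40 and 8 of 27. These counts are a description with no test. The stretches printed here show the ETS or NRF1 motif, in capitals and 5′ to 3′ on the gene's strand, before the start of 4 members that fell and 3 that were not called. CTTCCGG is CCGGAAG read on the other strand, and the capitals in MRPL17 are overlapping NRF1 matches on both strands. MRPL20 (chr1:1407294-1407353, minus strand), MRPS34 (chr16:1773135-1773214, minus), MRPL17 (chr11:6683406-6683435, minus) and MRPL3 (chr3:131502982-131503021, minus) fell, and MRPS22 (chr3:139343894-139343933, plus), MRPS31 (chr13:40771201-40771240, minus) and MRPS18A (chr6:43687802-43687841, minus) were not called. In MRPS31 the second run of capitals is the GC-box.
MRPL20: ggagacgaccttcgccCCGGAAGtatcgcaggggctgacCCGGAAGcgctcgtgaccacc
MRPS34: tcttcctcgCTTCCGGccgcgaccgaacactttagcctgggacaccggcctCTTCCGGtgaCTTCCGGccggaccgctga
MRPL17: aggcaggctctgatgCGCATGCGcaaacac
MRPL3: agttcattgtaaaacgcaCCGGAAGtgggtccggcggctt
MRPS22: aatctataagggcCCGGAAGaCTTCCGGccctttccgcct
MRPS31: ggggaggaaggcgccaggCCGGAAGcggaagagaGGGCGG
MRPS18A: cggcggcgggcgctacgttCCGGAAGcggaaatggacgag

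AGATGGC stood mostly after the start. Of its 21 copies in member promoters, 14 began after the start, and all 14 of these lay on the gene's own strand, while CCGGAAG had 39 copies, 19 of them wholly within the 60 bases before the start. Bases 4 to 23 of the transcript show the YY1 motif in MRPL46 (chr15:88467366-88467385, minus strand) and MRPL42 (chr12:93467517-93467536, plus), which fell, and in MRPS18A (chr6:43687769-43687788, minus) and MRPL38 (chr17:75904862-75904881, minus), which were not called.
MRPL46: aacgaaAGATGGCggcgccc
MRPL42: gaaacaAGATGGCgggttcg
MRPS18A: tttttgaAGATGGCggccct
MRPL38: gggaAGATGGCggcgccctg

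Of the 2 genes that rose, MRPL49 had a promoter in the table. This promoter held no ETS or YY1 motif, and it carried a GC-box after the start, outside the bases printed here. It also carried an E-box far before the start (chr11:65121933-65121972, plus strand, E-box in capitals).
MRPL49: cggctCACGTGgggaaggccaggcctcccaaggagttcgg

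Many members share a start region with a gene on the other strand. In the annotation, 26 members had a protein-coding non-member gene, averaging at least 10, that started within 1000 bases on the opposite strand. These made 27 pairs. Pairs of members were left out of that count. Among those left out are MRPL46 (start at chr15:88467419, minus strand) and MRPS11 (start at chr15:88467453, plus strand). MRPL46 fell (-0.88 ± 0.26) and MRPS11 was not called (0.02 ± 0.26). Among these partners 7 fell, 3 rose and 17 were not called, with a median of -0.28, where 19.8% of all genes tested fell and 18.3% rose. Both genes fell in 3 of the 15 pairs whose member fell: MRPL36 with NDUFS6, a complex I subunit (-0.998 ± 0.15), MRPL13 with MTBP (-0.47 ± 0.11) and MRPL11 with PELI3 (-1.35 ± 0.44). In 2 pairs the member fell and the partner rose, MRPL14 with TMEM63B (0.83 ± 0.21) and MRPS7 with GGA3 (0.48 ± 0.13). In others the partner fell while the member was not called, as for MRPL43 with TWNK, the mitochondrial DNA helicase (-1.34 ± 0.11), MRPL18 with TCP1, a chaperonin subunit (-0.74 ± 0.08), and MRPL32 with PSMA2, a proteasome subunit (-1.07 ± 0.09). MRPL49 rose and its partner FAU fell. Some of these pairs also overlap in their exons, on opposite strands. They are MRPL11 with PELI3, MRPL13 with MTBP, MRPS7 with GGA3, MRPL43 with TWNK, MRPL32 with PSMA2 and MRPL49 with FAU. How strand was used in counting is not given, and the part of these overlaps in the values was not tested.

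Length, GC content and level were set beside the size of the change. Over the 77 members, the log2 fold change correlated with GC content at r = -0.35 (Spearman's rho -0.36), with transcript length at r = 0.25 (rho 0.24) and with the DMSO level at r = -0.05 (rho 0.03). These are descriptions across genes of the same 6 libraries, and genes are not independent replicates. Length and GC content are medians over annotated transcripts of each gene. Members that fell had a median GC content of 50.7% and the others 46.4%. Transcripts of the members are short, with a median of 1032 bases against 1740 for tested genes with annotation. With the trend of each library on GC content and length removed, 46 members were called lower and 2 higher, but not the same ones: MRPL41 and MRPL55 were lost, while MRPL50 (-0.54, adjusted p = 0.0194) and MRPS10 (-0.33, adjusted p = 0.0197) passed.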

How the data were processed

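RNA-seq was measured in 3 MB1-47 and 3 DMSO libraries. The authors deposited 1 table of normalized counts by gene symbol, treated here as signal values. The submitters' processing notes name kallisto 0.44.0, DESeq and GRCh38.p13. The annotation, the summing to genes and any filters: not given in the sources used here. At best 58.9% of a library's low values lay within 0.1 of a whole multiple of 1 step, so whole reads were not recovered and depth is unknown.

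Genes with a mean of at least 10 were taken as log2(value + 1), which understates changes of low genes. limma 3.58.1 (R 4.3.3) fitted the group difference with an intensity trend over 13465 genes, and p-values were adjusted by Benjamini-Hochberg (threshold 0.05, two-sided). The function was tested on simulated data. Positions, lengths and overlaps are from GENCODE 29 (GRCh38), where 99.2% of symbols were found once.

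The members, gene lists, motifs and the naming rule were chosen with earlier results of these data known. The naming rule took every member not called lower, the 12 largest falls among members averaging 100 or more whose groups did not overlap, the structural lists, and up to 4 called genes per direction from the related lists (mean 50 or more), plus MYC, NRF1, GABPA, YY1, TFAM and PPARGC1A. Other members were named to complete counts, and overlapping and divergent partner genes and printed promoter stretches were chosen after values were seen. Alternatives were pseudocounts of 0.5 and 5, no filter or a filter at 50, factors by the trimmed mean of M values, quantile normalization, equal library totals, no intensity trend, a replicate block, removal of GC and length trends, added pseudogene values, another subunit assignment and each library left out. Figures used matplotlib 3.10.9. One B-lineage marker is not reported here.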

Additional observations from a re-analysis of the deposited data

How the results depend on the processing

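Of 46 members called lower, 38 were called lower in all 18 alternatives, 8 lost the call in at least 1 and none turned. Of 29 not called, 23 were not called in any alternative. Leaving out each library gave 40 to 46 members lower, 1 to 2 higher, 24 to 29 of the large and 15 to 17 of the small subunit lower, and medians of -0.76 to -0.61 and -0.58 to -0.40. Equal library totals moved the median of all genes by 0.13, and the medians became -0.58 (large) and -0.39 (small), which relative to the median of all genes are -0.73 and -0.54, as in the fit as reported. With equal totals MRPS18A, MRPS21, MRPS22, MRPS31 and MRPS33 turned to 0.10, 0.074, 0.058, 0.0087 and 0.084, 3 of the 5 subunits with other names were called lower and 2 assembly genes higher. Without an intensity trend 1 member was higher, 3 of the 5 subunits were lower, and 0 assembly genes, 1 translation factor and 1 regulator were higher; with no filter 1 regulator was higher. With GC and length trends removed MRPS18A was 0.14 and GABPA -0.035; added pseudogene values gave MRPS31 0.24. Leaving out libraries, MRPL38 ran from -0.042 to 0.067, MRPS11 from -0.18 to 0.27, MRPS18A from -0.19 to 0.10, MRPS18B from -0.088 to 0.11, MRPS18C from -0.28 to 0.0047, MRPS21 from -0.14 to 0.076, MRPS22 from -0.17 to 0.049, MRPS33 from -0.27 to 0.26, MRPS36 from -0.20 to 1.46 and NRF1 from -0.0011 to 0.12; none of these was called. In the same way 0 to 1 assembly genes, 1 to 2 translation factors and 1 to 3 regulators were higher, and 3 to 4 of the 5 subunits lower. The cause of these changes was not tested.

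Deviations from the group mean in same-numbered libraries correlated at r = 0.02, 0.06 and 0.01 for replicates 1, 2 and 3. For libraries with different numbers, r ran from -0.06 to 0.03. With 3 libraries per group, these values cannot decide whether the numbers mark pairs. With the replicate block 45 members were lower and 2 higher, and with the block and the GC and length correction together 45 and 2, MRPS18A was 0.14, GABPA -0.035 and 3 of the 5 subunits were lower.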
